A study of Mus musculus with 4 samples.

Results

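The genes described here carry the symbols of gene families that code for subunits of the mitochondrial respiratory chain and of the ATP synthase made from nuclear DNA. They were taken by symbol: the Ndufa, Ndufb, Ndufc, Ndufs and Ndufv families with Ndufab1 for complex I, Sdha to Sdhd for complex II, the Uqcr family with Cyc1 for complex III, the Cox4 to Cox8 families for complex IV, the Atp5 family for complex V, and Cycs, the mobile carrier cytochrome c. Symbols that hold -ps were left out, and a mean of at least 1 CPM (a gene's counts scaled by the library total to a common depth) over the libraries was required. Of 55471 gene ids in the tables, 92 had such a symbol and 84 reached the minimum. These were 36 genes of complex I, 4 of complex II, 9 of complex III, 17 of complex IV, 17 of complex V and Cycs. Ndufa4 was placed under complex IV, where its protein resides. The member just inside the minimum was Cox6c2, at 1.22 CPM, and the gene just outside it was Ndufb4c, at 0.94 CPM. Cox6c2 is annotated as a processed pseudogene, and a symbol alone does not show that a gene codes for a subunit.

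The libraries were RNA-seq of RNA pulled down with tagged ribosomes from astrocytes of male mice, 8 to 9 weeks old, of the genotype GFAP-Cre+/- Rpl22HA/wt. In these mice Cre recombinase, driven by the GFAP promoter, switches on an HA tag on ribosomal protein Rpl22, so the pull-down takes RNA of every cell in which that promoter has been active. The 2 groups were cuprizone (0.2% w/w in the chow, a copper chelator that injures oligodendrocytes and strips myelin) and mock (normal diet), with 2 libraries each. Both groups shared the genotype, the labelled time of 3 weeks and the label of batch 1. The design text of the series gives 5, 5.5 and 7 weeks and dissected corpus callosum, whereas the sample labels give 3 weeks and brain, so neither the time nor the region is settled by the sources used here. The labels do not say whether a library came from 1 animal or several, so the p-values measure only the spread between these libraries.

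The respiratory chain sits in the inner mitochondrial membrane and passes electrons from NADH and succinate to oxygen while pumping protons outward. Complex I takes electrons from NADH, complex II from succinate, complex III hands them to cytochrome c, complex IV reduces oxygen, and complex V lets protons flow back to make ATP. All of these except complex II also contain subunits coded by mitochondrial DNA, and the nuclear subunits described here are translated in the cytosol and imported. Complexes I, III and IV have a small conserved catalytic core and many short accessory subunits around it. Astrocytes respire as well as running glycolysis, and nuclear genes of this kind are known targets of the transcription factors NRF1, GABP and YY1.

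To show what the promoters of these genes hold in common beyond their symbols, the windows from 250 bases before to 50 bases after the start site (RefSeq, GRCm38.p6, 1 window per gene) were searched on both strands for 3 motifs spelled out as letters. A window was at hand for 66 of the 84 genes. The NRF1 motif GCGCANGCG was in 20 of the 66 windows (30.3%), against 13.0% of the windows of all tested genes. The ETS motif CCGGAAG, which GABP binds, was in 15 (22.7%, against 16.7%), and the YY1 motif AAGATGGCG was in 6 (9.09%, against 2.97%). Matches of the 3 motifs were allowed to overlap. A match is a run of letters and not a measured binding site. The NRF1 letters were in 8 of 32 windows of complex I, 6 of 13 of complex V, 2 of 3 of complex II, 2 of 5 of complex III, 1 of 12 of complex IV and in that of Cycs. The stretches below are shown because NRF1 is the factor best known for these genes. For each gene the longest run free of annotated exons within the 150 bases before the start site was taken. In 6 genes that run held the NRF1 letters, which are printed in capitals on whichever strand they matched. These 6 stretches leave out matches elsewhere in a window, so Cox6a1 and Sdha, with 3 matches each, show 1 each. They lie at chr11:115419963-115420069 (minus strand, Atp5h), chr5:115348982-115349108 (minus, Cox6a1), chr6:50566570-50566642 (minus, Cycs), chr17:56717686-56717761 (plus, Ndufa11), chr4:123718203-123718336 (minus, Ndufs5) and chr13:74350281-74350308 (minus, Sdha).
Atp5h: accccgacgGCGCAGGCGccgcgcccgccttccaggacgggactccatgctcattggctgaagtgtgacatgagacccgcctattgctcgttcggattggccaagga
Cox6a1: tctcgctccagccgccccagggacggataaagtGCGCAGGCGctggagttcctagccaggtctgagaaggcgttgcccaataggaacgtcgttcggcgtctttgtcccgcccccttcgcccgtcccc
Cycs: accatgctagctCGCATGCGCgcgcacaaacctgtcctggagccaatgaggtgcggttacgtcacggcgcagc
Ndufa11: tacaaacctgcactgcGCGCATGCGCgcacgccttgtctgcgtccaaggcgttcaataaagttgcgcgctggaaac
Ndufs5: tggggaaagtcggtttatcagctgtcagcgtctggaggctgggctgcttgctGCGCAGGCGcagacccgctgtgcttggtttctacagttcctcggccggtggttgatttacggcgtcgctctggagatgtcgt
Sdha: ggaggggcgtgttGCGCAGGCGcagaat
Of these 6 genes, Sdha had a fold above 0 in cuprizone and the other 5 a fold below 0. Over all windows the motif was in 18 of 61 windows of genes with a fold below 0 and in 2 of 5 of genes with a fold above 0.

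Library totals were 21209517 to 23822620 counts, and 3 counts, the limit that a count of 0 allows, equalled 0.126 to 0.141 CPM, for counting error only. The 84 genes took 2.68 and 2.32% of the counts in cuprizone and 2.85 and 2.56% in mock. All 12 astrocyte markers were detected in every library, but their summed share was 0.652 to 0.777% of counts in cuprizone and 1.02 to 1.05% in mock, and 10 of 12 had a fold below 0. The 12 neuron markers summed to 1.496 to 1.501% in cuprizone and 1.31 to 1.37% in mock, the 10 oligodendrocyte markers to 1.05 to 1.36% and 1.32 to 1.53%. Most of the neuron sum was Snap25, and the list was mixed in direction, with 5 of 12 folds below 0. Of the oligodendrocyte markers, 8 of 10 had a fold below 0, where 49.9% of all genes tested did. The 6 oligodendrocyte precursor markers summed to 0.0289 to 0.0458% and 0.0302 to 0.0457%. Microglial markers summed to 0.00204 to 0.00206% and 0.00317 to 0.00463%, with Aif1, C1qa and Cx3cr1 at 0 in at least 1 library. Endothelial, fibroblast and ependymal markers were each at most 0.005265%, and 7 of 8 endothelial markers and 5 of 8 fibroblast markers were at 0 in at least 1 library. The part of these differences in the results below was not tested. In bulk RNA, fewer cells of a type and less RNA per cell cannot be told apart.

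No nuclear respiratory chain gene passed the test between the diets, while most of them stood slightly lower in cuprizone. With edgeR's quasi-likelihood test and Benjamini-Hochberg adjustment over 15816 tested genes, 0 of the 84 were called higher (0.0316% of all genes were) and 0 lower (0.0506%). The smallest adjusted p among them was 0.330. At an unadjusted p under 0.05, 3 were lower (Ndufs8, Cox7a2l and Atp5d, 7.04% of all genes) and 0 higher (5.73%). DESeq2 called 0 of the 84 as well, where it called 1.68% of all genes higher and 2.88% lower. At an unadjusted p under 0.05 it had 13 of the 84 lower (7.68% of all genes) and 1, Sdha, higher (6.76%). By limma-voom 0 were called (0.0569% of all genes higher, 0.24% lower), and at an unadjusted p under 0.05 there were 9 lower (7.58%) and 1, again Sdha, higher (5.85%). The log2 fold of cuprizone over mock was below 0 for 72 of the 84 genes (85.7%), against 49.9% of all genes tested, and above 0 for 12, against 50.1%. Its median was -0.29 (quartiles -0.35 and -0.15), against 0.0006 over all genes, and 80 of the 84 folds lay within 0.5 of 0 on that scale. The median standard error (SE) of a single fold was 0.19.

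The shift rested unevenly on the libraries. Both cuprizone libraries lay below both mock libraries for 36 genes (42.9%, where 22.5% of all genes did so), and above both for 3 genes, Ndufa9, Sdha and Cox4i2 (3.57%, where 21.9% of all genes did so). For the other 45 genes the groups overlapped. Cuprizone replicate 2 was the lowest library for 64 of the 84 genes, and mock replicate 1 the highest for 64. The median log2 ratio of cuprizone replicate 2 to replicate 1 was -0.34, and that of mock replicate 2 to replicate 1 was -0.19, where all genes gave 0.0046 and 0.0043. The median difference between the 2 cuprizone libraries was thus larger in size than the median difference between the diets. Without cuprizone replicate 1 the median fold of the 84 genes was -0.48, without cuprizone replicate 2 it was -0.12, without mock replicate 1 it was -0.16 and without mock replicate 2 it was -0.36. Each of these fits left 1 diet with 1 library, so only the medians are given here.

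**Figure D1:**
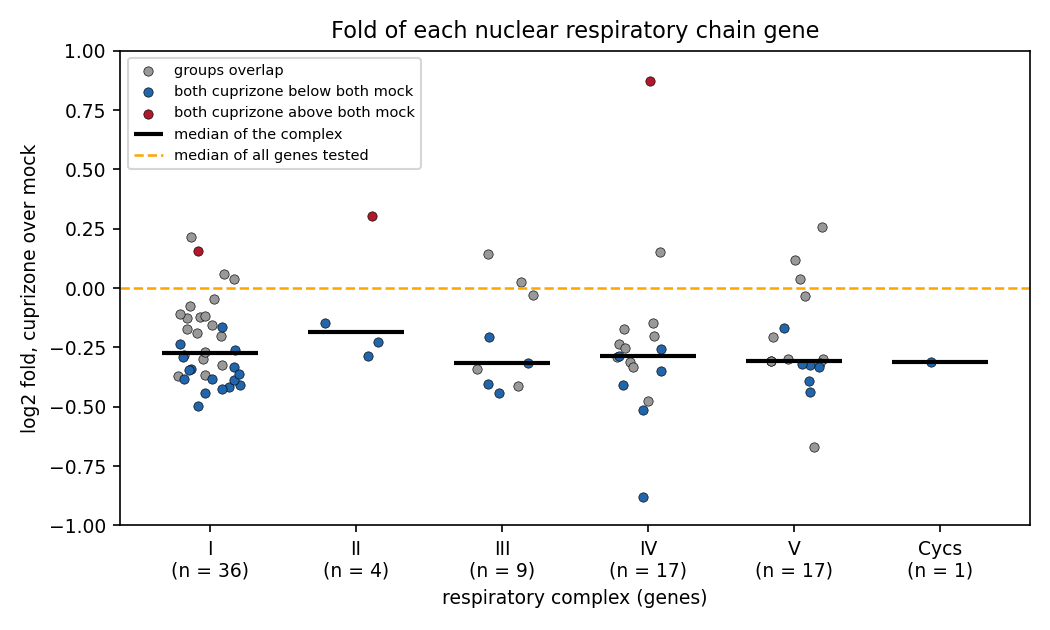
Each point is 1 gene, placed by respiratory complex (x axis) and by its log2 fold of cuprizone over mock (y axis), with black bars for the median of each complex and a dashed line for the median of all tested genes. The medians of complexes I, III, IV and V lie between -0.28 and -0.31, that of complex II at -0.19, and 3 points, drawn in red, have both cuprizone libraries above both mock libraries.

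Summed over the genes of a complex, complexes I and III to V were lowest in cuprizone replicate 2 and highest in mock replicate 1. Levels from here on are CPM with the library total scaled by TMM (trimmed mean of M values). Complex I summed to 8656 and 7297 CPM in cuprizone and 9839 and 8659 in mock, so that cuprizone replicate 1 stood just under mock replicate 2. Complex IV summed to 5070.1 and 3927 CPM in cuprizone and 5945 and 5059 in mock, and here the groups overlapped. Complex III summed to 3220 and 3019 CPM against 3655 and 3270 CPM, and complex V to 7122 and 6770 against 7855 and 7294. Complex II had the narrowest range, with 1764 and 1680 CPM in cuprizone and 1776 and 1780 in mock. No test was made on these sums: an exact permutation of 2 against 2 libraries cannot give a p below 0.333.

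**Figure D2:**
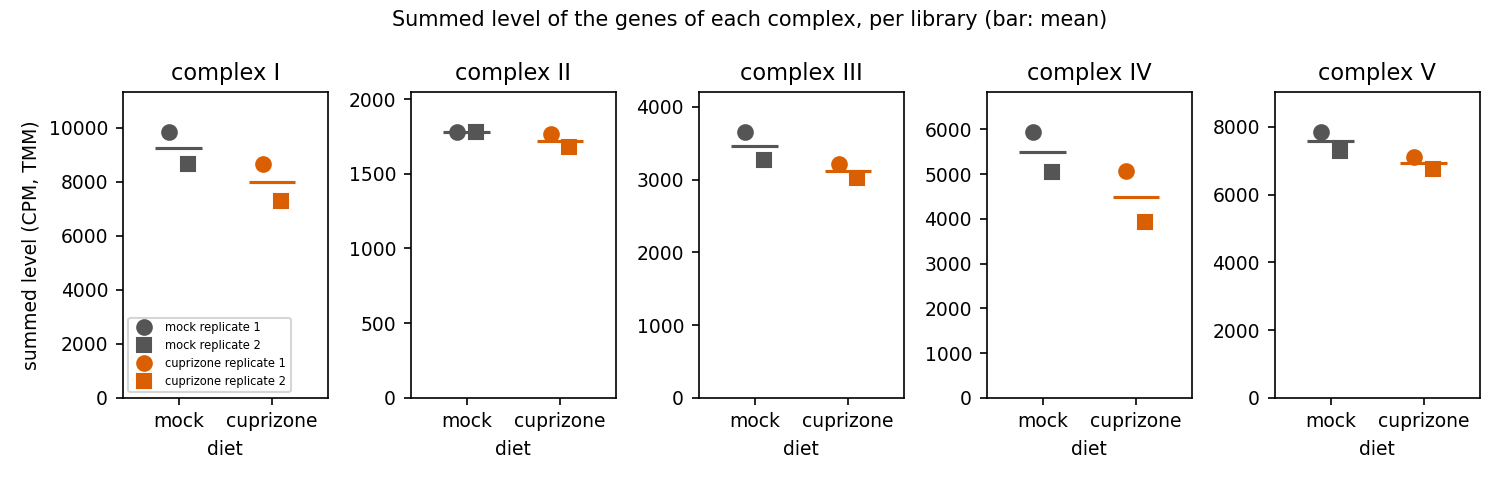
Each panel is 1 complex and each point 1 library (circle for replicate 1, square for replicate 2), with the summed level of its genes in CPM on an axis that starts at 0 and a bar at the mean of each diet. Cuprizone replicate 2 is the lowest point in every panel, and in complex IV cuprizone replicate 1 (5070.1) lies above mock replicate 2 (5059).

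Complex I holds 7 nuclear core subunits, which carry the flavin and the iron-sulphur clusters or build the quinone site, and 29 other genes here that code for accessory subunits. The core genes had a median log2 fold of -0.11 with 5 of 7 below 0, and the accessory genes of -0.30 with 27 of 29 below 0. As summed levels the core genes gave 2339 and 2336 CPM in cuprizone and 2523 and 2458 in mock. The accessory genes gave 6317 and 4961 CPM against 7316 and 6201, so the wide spread between the libraries of a diet lay in the accessory genes. They include all 20 genes of complex I with under 500 coding bases, so role and length are not separated in this comparison.

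Ndufs8, which codes for a core subunit with iron-sulphur clusters (chr19:3908863-3912774, minus strand, GRCm38), had the smallest adjusted p of the 84 genes. It stood at 235.5 and 241 CPM in cuprizone (238 ± 3.95, SD, n = 2) and 314 and 309 CPM in mock (311 ± 3.57). The groups were apart and the replicates close, with a log2 fold of -0.38 (SE 0.14, adjusted p = 0.330). The other core genes described had smaller folds. Ndufv1, which binds NADH through its flavin, stood at 414 and 432 CPM in cuprizone and 422 and 452 in mock, with overlap, and Ndufv2, its partner in the NADH module, had a log2 fold of -0.16 (SE 0.14) with no overlap. Ndufs1, the longest of the core subunits, stood at 164 and 219 CPM in cuprizone and 157 and 174 in mock, a log2 fold of 0.21 (SE 0.19) that was -0.0146 without cuprizone replicate 2, and the overlap came from mock replicate 2 lying above cuprizone replicate 1. Ndufs3 and Ndufs7, which belong with Ndufs8 to the module that reduces quinone, had log2 folds of -0.11 and -0.12, each with overlap.

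Among accessory subunits of complex I, all 10 Ndufb genes, which belong to the membrane arm, had a fold below 0, from -0.35 to -0.08 with a median of -0.27. Of these, 4 (40%) had no overlap, where 22.5% of all genes were lower without overlap. The largest differences without overlap at 5 CPM or more were those of Ndufa3, Ndufs5 and Ndufa5. Ndufa3, a small membrane subunit, stood at 158 and 114 CPM in cuprizone and 225 and 159.5 CPM in mock, a log2 fold of -0.50 (SE 0.24, adjusted p = 0.472). Its highest cuprizone library and its lowest mock library lay close together. Ndufs5, an accessory subunit of the membrane arm (chr4:123712710-123718202, minus strand) whose upstream stretch is printed above, stood at 98.1 and 71.8 CPM against 124 and 106 CPM, a log2 fold of -0.44 (SE 0.22). Ndufa5, an accessory subunit of the peripheral arm, stood at 261 and 196 CPM against 326 and 287 CPM, a log2 fold of -0.43 (SE 0.19, adjusted p = 0.424). The most abundant gene of complex I per kilobase of exon was Ndufc2, a subunit of the membrane arm, at 445 CPM per kb, with a log2 fold of -0.38 (SE 0.16). Per kilobase of the transcript with the longest coding sequence, Ndufb10 (568 CPM per kb) ranked above Ndufc2 (492). Ndufa9, which sits at the base of the peripheral arm near the quinone site, was the exception in direction without overlap: it stood at 255 and 231 CPM in cuprizone and 213 and 223 in mock, a log2 fold of 0.16 (SE 0.15, adjusted p = 0.758).

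Complex II is succinate dehydrogenase, which also belongs to the tricarboxylic acid cycle, and its 4 genes did not have the same sign. Sdha, the flavoprotein that oxidises succinate (chr13:74322254-74350280, minus strand), stood at 686 and 719 CPM in cuprizone (703 ± 23.2, SD, n = 2) and 557 and 580 CPM in mock (568 ± 16.3). Sdhb, the iron-sulphur subunit that binds to it (chr4:140961203-140979193, plus strand), stood at 655 and 528 CPM in cuprizone (592 ± 89.8) and 736 and 709 CPM in mock (722 ± 19.5). The groups were apart for both genes and in opposite directions, with log2 folds of 0.31 (SE 0.13, adjusted p = 0.395) for Sdha and -0.29 (SE 0.15, adjusted p = 0.510) for Sdhb. The membrane anchors were also lower without overlap: Sdhc stood at 208 and 220.4 CPM against 252 and 249, and Sdhd at 214 and 212 against 230.3 and 242. Their log2 folds were -0.23 (SE 0.14) and -0.15 (SE 0.14). The number of Sdha counts per Sdhb count, a ratio within a library that no scaling changes, was 1.05 and 1.36 in cuprizone and 0.756 and 0.818 in mock. Such ratios show unequal change of a pair of genes and not which of them differed, and the pairs given here were chosen after their values were seen.

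The genes of complex III can be divided by role in the same way. The core proteins Uqcrc1 and Uqcrc2, the haem protein Cyc1 and the Rieske iron-sulphur protein Uqcrfs1 had a median log2 fold of -0.0023, with 2 of 4 below 0. The 5 small accessory subunits all had folds below 0, with a median of -0.40. They are also the only genes of the complex with under 500 coding bases. Summed, the first set stood at 1825 and 2019 CPM in cuprizone and 1934 and 1861 in mock, and the small subunits at 1395 and 1000.2 against 1720.2 and 1409, with overlap in the first set and none in the second. Uqcrc1 stood at 815 and 989 CPM in cuprizone and 801 and 830.2 in mock, a log2 fold of 0.15 (SE 0.15). Uqcr10, a small subunit beside the Rieske protein and per kilobase of exon the most abundant of its complex (516 CPM per kb), stood at 292 and 219 CPM against 391 and 304 CPM, a log2 fold of -0.44 (SE 0.21, adjusted p = 0.445). Uqcrh, the hinge protein near cytochrome c1, had a log2 fold of -0.40 (SE 0.21) and Uqcrb, a quinone-binding subunit, of -0.31 (SE 0.17), both without overlap. Uqcrc1 gave 2.25 and 4.18 counts per count of the small subunit Uqcrq in cuprizone and 1.91 and 2.46 in mock, so this ratio differed more between the cuprizone libraries than between the diets. Cycs, which carries electrons from complex III to complex IV, stood at 183 and 146 CPM in cuprizone and 214 and 195 in mock, a log2 fold of -0.31 (SE 0.18, adjusted p = 0.542).

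Complex IV has isoform pairs of which 1 member is widely expressed and the other is known from particular tissues such as lung, muscle, heart or testis. The widely expressed forms took nearly all counts. Cox4i1, the largest nuclear subunit of the complex, stood at 915 and 755 CPM in cuprizone and 1150.4 and 976 CPM in mock, a log2 fold of -0.35 (SE 0.16, adjusted p = 0.432) without overlap. Cox4i2, its counterpart known to respond to low oxygen, stood at 3.69 and 3.43 CPM in cuprizone (83 and 83 counts) and 1.86 and 2.03 CPM in mock (40 and 42 counts). It lay higher in both cuprizone libraries, but at this depth the log2 fold of 0.87 carried an SE of 0.71 (adjusted p = 0.704). For each 100 counts of Cox4i1 there were 0.404 and 0.454 of Cox4i2 in cuprizone and 0.162 and 0.208 in mock.

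The remaining isoforms of complex IV followed the general shift in their abundant forms. Cox6a1, Cox6b1, Cox7a2 and Cox8a, together with Ndufa4, had log2 folds of -0.31 to -0.20. Cox6a1 was the most abundant gene of complex IV per kilobase of exon (843 CPM per kb) and stood at 595 and 470 CPM in cuprizone and 717 and 586 in mock, with overlap. Per kilobase of the transcript with the longest coding sequence, Cox4i1 (1241 CPM per kb) and Ndufa4 (1057) ranked above Cox6a1 (1036). The rare isoforms were measured from few counts: Cox6a2 at 2.98 and 1.94 CPM against 1.67 and 2.75, Cox7a1 at 2.36 and 3.10 against 4.93 and 2.66, and Cox6b2 at 1.16 and 1.82 against 2.88 and 2.61. Of these, Cox6b2 was apart between the diets, with a log2 fold of -0.88 and an SE of 0.83. Cox8b, Cox8c and Ndufa4l2 did not reach 1 CPM. Cox7a2l, which helps to join complexes III and IV into supercomplexes (chr17:83501918-83517330, minus strand), stood at 125 and 95.6 CPM in cuprizone (110.2 ± 20.6, SD, n = 2) and 166 and 148 CPM in mock (157 ± 12.1). It had a log2 fold of -0.51 (SE 0.20, adjusted p = 0.356), the farthest from 0 among genes without overlap at 10 CPM or more. Cox5b, a zinc-binding subunit on the matrix side, had a log2 fold of -0.41 (SE 0.18, adjusted p = 0.425) without overlap.

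In complex V, the medians of the log2 folds were -0.33 for the 3 genes of the membrane ring, -0.31 for the 4 of the peripheral stalk and -0.30 for 5 others. The 5 genes of the F1 head, where ATP is made, had a median log2 fold of -0.17 with 4 of 5 below 0, and they summed to 4164 and 4503 CPM in cuprizone and 4410.4 and 4418 in mock, with overlap. Atp5b, the catalytic beta subunit and per kilobase of exon the most abundant gene of its complex (431 CPM per kb), stood at 1759 and 2042 CPM against 1765 and 1741, a log2 fold of 0.12 (SE 0.13). Atp5a1, the alpha subunit, and Atp5c1, the central gamma stalk, had log2 folds of -0.03 (SE 0.13) and -0.17 (SE 0.13). Atp5d, the delta subunit at the foot of that stalk (chr10:80138632-80145818, plus strand), stood at 378 and 354 CPM in cuprizone (366 ± 16.6, SD, n = 2) and 453 and 465 CPM in mock (459 ± 8.29). Its groups were apart, with a log2 fold of -0.33 (SE 0.13, adjusted p = 0.388). Atp5e, the shortest coding sequence of the 84 genes, had a log2 fold of -0.30 (SE 0.22) with overlap.

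The rotating ring of complex V is built of identical copies of subunit c, for which 3 genes code. Atp5g1, Atp5g2 and Atp5g3 had log2 folds of -0.32, -0.39 and -0.33, and the most counted of them, Atp5g3, stood at 519 and 409 CPM in cuprizone and 609 and 559 CPM in mock (SE 0.16, adjusted p = 0.476). Atp5b gave 3.39 and 4.99 counts per count of Atp5g3 in cuprizone and 2.90 and 3.12 in mock. The groups did not overlap, but this ratio also differed more between the cuprizone libraries than between the diets. Atp5o, the peripheral stalk subunit that holds the head (chr16:91925214-91931687, minus strand), stood at 148 and 120 CPM against 195 and 168, a log2 fold of -0.44 (SE 0.19, adjusted p = 0.404). Atp5k, subunit e of the membrane part, had the fold farthest from 0 of the 78 genes at 10 CPM or more, -0.67 (SE 0.38), but stood at 123 and 73.4 CPM in cuprizone and 207 and 105 in mock, with overlap.

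**Figure D3:**
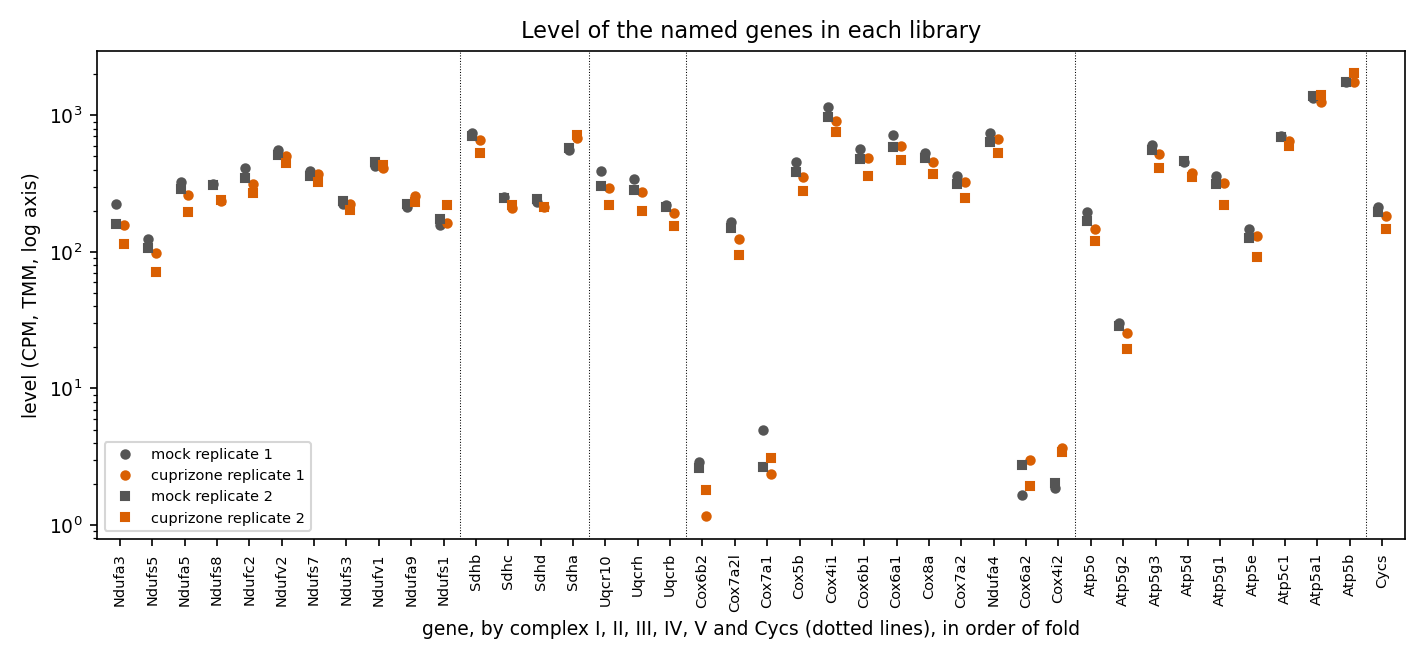
Levels in CPM on a log axis (y) of the genes named by the rule in the methods, in order of complex and of fold (x), with orange for cuprizone, grey for mock, circles for replicate 1 and squares for replicate 2. The orange points of Ndufa9, Sdha and Cox4i2 lie above the grey ones, while for most other genes the orange square, cuprizone replicate 2, is the lowest point.

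The folds were ordered by a property that the choice by symbol did not use, the length of the coding sequence. Coding lengths, taken from GENCODE M21 for 83 of the 84 genes (Cox6c2 is annotated as a processed pseudogene), ran from 156 bases in Atp5e to 2181 in Ndufs1 with a median of 423, against 1407 over all tested coding genes. Of 51 genes under 500 bases, 50 had a fold below 0, with a median of -0.32. Of 21 genes from 500 to under 1000 bases, 18 did, with a median of -0.21, and of 11 genes of 1000 bases or more, 3 did, with a median of 0.06. The genes of 1000 bases or more included Ndufs1, Ndufa9, Sdha, Uqcrc1 and Atp5b, whose folds above 0 are given with their complexes.

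The same order by length was present between libraries of a single diet. From cuprizone replicate 1 to replicate 2 the median log2 ratio was -0.41 under 500 bases, -0.19 in the middle class and 0.07 at 1000 bases or more. From mock replicate 1 to replicate 2 it was -0.24, -0.16 and 0.05. Across the 83 genes, which are not independent replicates, Pearson's r with log2 coding length was 0.56 for the fold between diets, 0.64 within cuprizone and 0.45 within mock (Spearman's rho 0.53, 0.71 and 0.55). The fold shares its libraries with the within-diet ratios. All tested coding genes were ordered in the same way but less steeply: 1139 genes under 500 bases had a median fold of -0.19 with 826 (72.5%) below 0, 3089 of the middle class of -0.10 and 9476 longer genes of 0.09, with r of 0.12. Complex by complex, the genes under 500 bases had a median of -0.35 in complex I, -0.40 in complex III, -0.29 in complex IV and -0.31 in complex V. In complex III these are the 5 small accessory subunits described above, so role and length cannot be told apart there. In complex I all 20 genes under 500 bases are accessory, and the shortest core gene, Ndufs8, has 636 bases. Role and length are thus largely mixed in complex I as well. The part of length in the difference between diets was not tested, and the look at length was chosen after the values were seen.

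**Figure D4:**
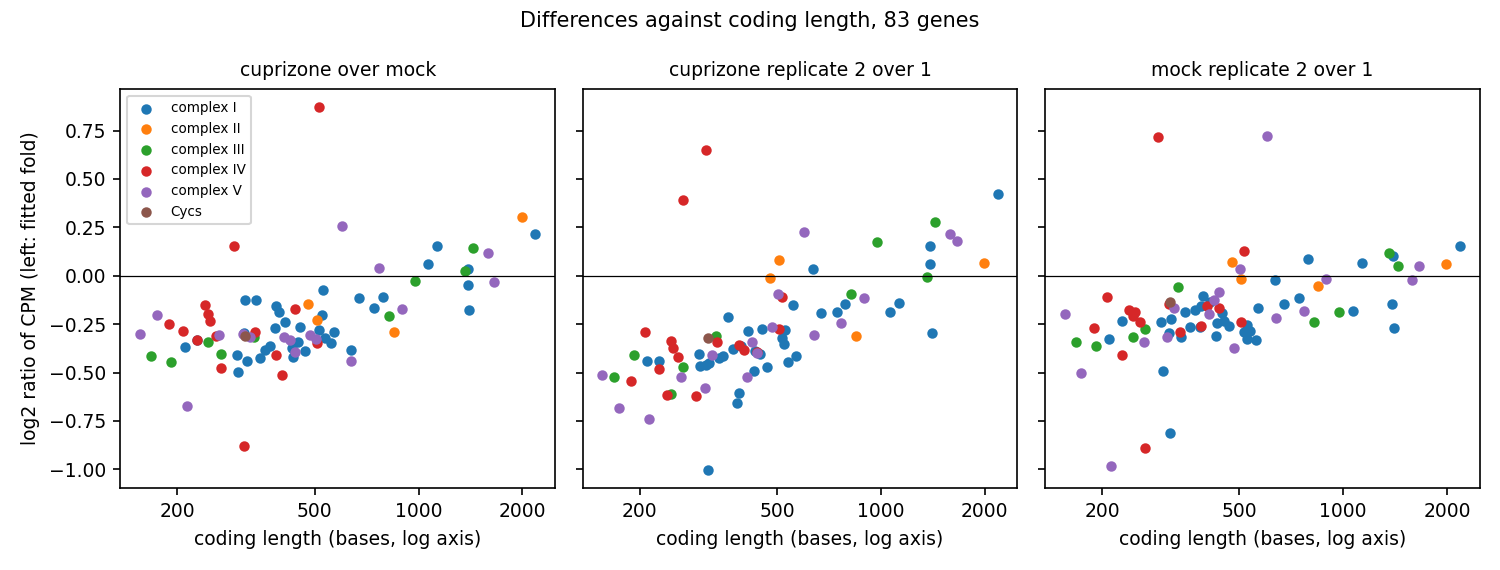
Each point is 1 of 83 genes, placed by its coding length in bases (log axis) and by a log2 ratio: cuprizone over mock on the left, cuprizone replicate 2 over replicate 1 in the middle and mock replicate 2 over replicate 1 on the right. In all 3 panels the short genes lie mostly below 0 and the longest near or above it, with Pearson's r of 0.56, 0.64 and 0.45.

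Other genes of the pathway, from lists of assembly factors, feeder enzymes, carriers and regulators, had medians nearer to 0, which was not tested. Of 17 tested assembly factors of complex I, 9 had a fold below 0, with a median of -0.03, and of 35 assembly factors of complexes II to V, 21 did, with a median of -0.08. Enzymes of coenzyme Q synthesis and other entry of electrons had 10 of 20 below 0 and a median of -0.0018. Those of the tricarboxylic acid cycle without complex II had 7 of 18 below 0 and a median of 0.06. Carriers and channels for ATP, ADP and protons had 6 of 11 below 0 (median -0.05), and regulators of respiratory genes 4 of 12 (median 0.14). None of these 6 lists held a called gene, higher or lower, by edgeR, DESeq2 or limma-voom. By edgeR 0, 0, 1, 1, 1 and 2 of their genes, in the order given, had an unadjusted p under 0.05. The gene of the coenzyme Q list, Coq10b, was lower (7.04% of all genes were). Those of the next 3 lists, Dlst, Slc25a27, Gabpb1 and Polrmt, were higher (5.73%). The most counted genes were Tmem70 (log2 fold 0.10, SE 0.19), Coa3 (-0.27, SE 0.18), Gpd2 (0.30, SE 0.15), Mdh2 (-0.09, SE 0.13), Slc25a4 (-0.11, SE 0.12) and Ppargc1a (0.04, SE 0.27).

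The subunits coded by mitochondrial DNA are the partners of these nuclear subunits. Of 13 listed, 6 (mt-Atp6, mt-Atp8, mt-Co2, mt-Co3, mt-Nd3 and mt-Nd4l) were at 0 in at least 1 library and at no more than 10 counts in any, and were not tested, so the summed level is in effect that of the other 7. It was 26.1 and 26.7 CPM in cuprizone and 381 and 379 CPM in mock. All 7 tested genes had a fold below 0 with a median log2 fold of -3.83. By edgeR 4 of the 7, mt-Co1, mt-Cytb, mt-Nd1 and mt-Nd4, were called lower, where 0 of the 84 nuclear genes and 0.0506% of all genes were. DESeq2 called 7 of the 7 (2.88% of all genes lower) and limma-voom 3 (0.24%). Mitochondrial transcripts are translated inside the organelle, by ribosomes that do not contain Rpl22. What the difference in these transcripts has to do with the nuclear genes was not tested.

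**Figure D5:**
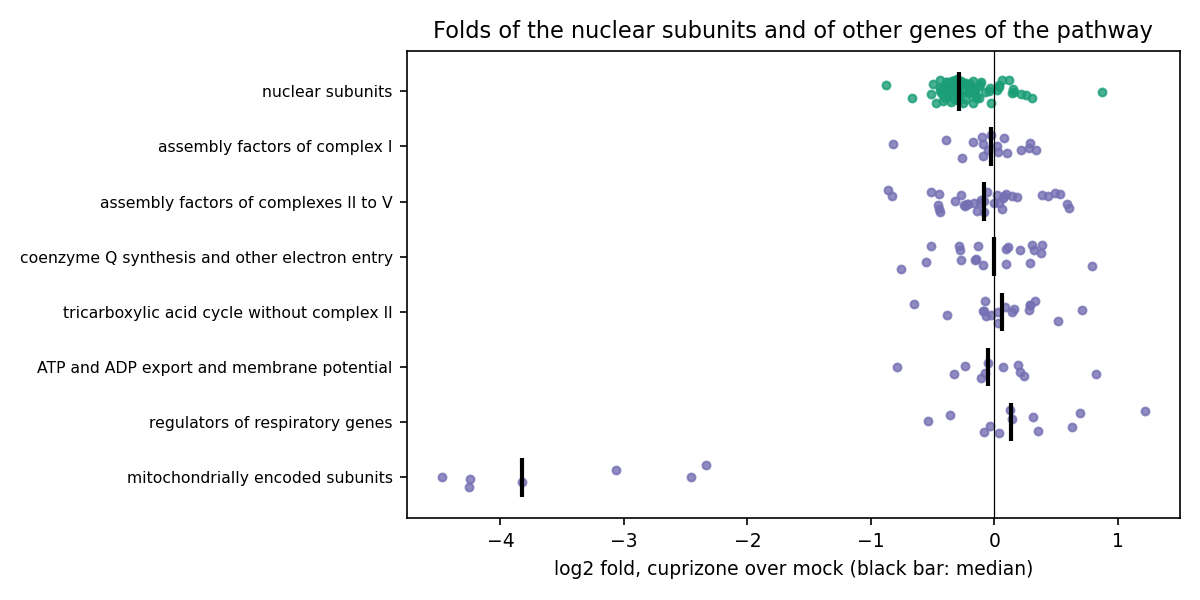
Each point is 1 tested gene, placed by its log2 fold of cuprizone over mock (x axis) in the row of its list, with a black bar at the median. The nuclear subunits are centred at -0.29, the lists of assembly factors, feeder enzymes, carriers and regulators at -0.08 to 0.14, and the mitochondrially encoded subunits at -3.83.

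Several of these genes have copies or neighbours that the counting could have mixed with them, since the treatment of reads mapping to several places and of strand is not given in the sources used here. An exon of a gene on the other strand overlaps 26 of the 84 genes, among them Cox4i1, Ndufa9, Atp5d, Atp5o and Uqcrb, and an exon of another gene id on the same strand overlaps 5 (Ndufb2, Ndufb8, Ndufb9, Atp5g2 and Atp5o). Atp5l, which codes for a subunit of the membrane part and has pseudogenes in these tables, stood at only 5.91 and 3.96 CPM in cuprizone and 6.74 and 5.41 in mock, far under its partners in the same complex, and its value is uncertain.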

How the data were processed

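The authors deposited 1 table of raw counts per gene for each library, whole numbers that are not normalized. Per the submitters' processing notes, FastQC 0.11.9, STAR 2.5.4b and featureCounts 1.6.0 were used with GRCm38 (mm10). Release of the annotation, strand setting and handling of multi-mapping reads: not given in the sources used here. Per the labels' protocols, RNA with an integrity number above 8 was made into libraries with a low-input kit.

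Ids were joined to GENCODE M21 (GRCm38) for symbols, coordinates and lengths; ids without a symbol held at most 0.023% of counts. Genes were filtered with filterByExpr, scaled with TMM and tested with edgeR 4.0.16 (R 4.3.3; glmQLFit with robust estimation and glmQLFTest, default dispersions, 2-sided, Benjamini-Hochberg, threshold 0.05) over 15816 genes, 2 cuprizone against 2 mock libraries. All 84 members passed the filter. SE is the size of the log2 fold divided by the square root of F. The steps were tested on simulated data. DESeq2 1.42.0, limma-voom (limma 3.58.1), other scalings and filters, bias-adjusted dispersions, a replicate block and leaving out each library were the alternatives.

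The members and lists were chosen with earlier results of these data known. Genes named are the Sdh genes, Cycs, the isoform sets, the core subunits of complex I, the F1 subunits, the most abundant gene per kb of each complex, up to 3 per direction with the largest fold without overlap at 5 CPM or more in complexes I, III, IV and V, and the most counted or called gene of each pathway list. Others named (Atp5k, Atp5l, Uqcrc1, Uqcrc2, Uqcrfs1, Cyc1, Uqcrq and those in counts) were chosen after their values were seen. Depth was 21209517 to 23822620 counts per library. A gene that the rule names is not reported here.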

Additional observations from a re-analysis of the deposited data

How the results depend on the processing

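No member was called under any setting that kept all libraries (smallest adjusted p 0.205, with DESeq2). Over all 14 settings run, the reported one and those without 1 library included, 60 of the 84 kept a fold below 0. A further 4 kept a fold above 0 (Atp5b, Cox4i2, Ndufa9 and Sdha), and 20 had both signs. Over all genes, 5 were called higher and 8 lower by edgeR as reported. These counts were 45 and 146 with no filter on low counts, 14 and 54 with a mean of at least 1 CPM, 265 and 455 with DESeq2, 9 and 38 with limma-voom, and 9 and 42 with bias-adjusted dispersions. Leaving out 1 library at a time gave 2 to 52 higher and 3 to 71 lower. With library totals alone the median of all genes was 0.07, 69 members had a fold below 0, and complex II had a median of -0.12, Atp5a1 a log2 fold of 0.036 and Ndufv1 of 0.022. Leaving out 1 library gave medians of -0.48 to -0.12 for all members, -0.47 to -0.10 for complex I, -0.20 to -0.14 for complex II, -0.48 to -0.16 for complex III, -0.47 to -0.12 for complex IV and -0.54 to -0.12 for complex V. It gave log2 folds of -0.13 to 0.052 for Atp5a1, -0.19 to 0.58 for Cox6a2, -0.83 to 0.037 for Cox7a1, -0.0146 to 0.41 for Ndufs1 and -0.10 to 0.029 for Ndufv1. The cause of these moves was not tested. The labels give both diets replicates 1 and 2 but no shared animal, so the numbers are not taken to pair the libraries. The deviations of replicate 1 from the 2 group means had a correlation of -0.0124 over 15816 genes. Among the 84 genes, however, the median log2 ratio of replicate 2 to replicate 1 was below 0 in both diets, -0.34 in cuprizone and -0.19 in mock. The correlation over all genes does not settle pairing for the 84 genes. With the replicate number as a block, 0 members were called, 5 of all genes were called lower and the members' median was -0.30. There 16 members had an unadjusted p under 0.05, but the share of all genes at that p was not worked out. Without that share the count cannot be read as more or fewer members than among genes at large. Depth limits the 6 members below 10 CPM, whose SEs were 0.53 to 1.06.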

Other observations

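A gene that the choice by symbol left out was counted at the level of the members. Ndufb1-ps, whose symbol is that of a complex I subunit with -ps added, had 1637 and 1219 counts in cuprizone and 2230 and 1552 in mock. Its mean was 75.04 CPM. Mock replicate 1 was its highest library and cuprizone replicate 2 its lowest, as for 64 of the 84 members in each case. The symbol does not settle whether Ndufb1-ps is a pseudogene or codes for a protein. The other 8 genes with -ps in the symbol were below 1 CPM.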
